A study of Homo sapiens with 12 samples.

Results

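The aminoacyl-tRNA synthetase genes encode the enzymes that attach each amino acid to its transfer RNA. The 36 genes were taken by symbol, in the older symbols the deposited table uses (AARS and not AARS1, for example), from a list of 20 genes for the cytosolic enzymes and 16 genes for the mitochondrial enzymes. Of these, 35 genes had rows in the table, out of 30275 genes in all. MARS2, the mitochondrial methionyl-tRNA synthetase gene, which has no intron, had none. The study treated MEC1 cells, a B cell line from chronic lymphocytic leukemia, with 75 nM of H3B-8800, an SF3B modulator, or with the solvent DMSO for 6 h, and measured splicing by sequencing of poly(A) RNA. The 12 samples fall into 4 groups of 3: K700E cells with H3B-8800, K700E cells with DMSO, WT cells with H3B-8800 and WT cells with DMSO. The 3 K700E replicates are separately edited clones, each labelled with the coding changes c.2098A>G and c.2106G>A in SF3B1, and K700E is the protein change. WT replicates 1 and 2 are cultures without an edit in their labels, and WT replicate 3 is a clone with c.2106G>A alone. Cloning and editing are shared by all K700E replicates and by 1 of the 3 WT replicates, and their part in a genotype difference was not tested. The labels do not say that the replicates were treated on separate days, so the p-values measure the spread between these samples.

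Most synthetases recognise a single amino acid and its transfer RNAs (the EPRS enzyme charges both glutamate and proline), and the charged transfer RNA is then carried to the ribosome by an elongation factor. Cytosolic and mitochondrial protein synthesis use separate enzymes for most amino acids, all of them encoded in the nucleus, while GARS and KARS each supply both compartments. Several cytosolic enzymes (those encoded by DARS, EPRS, IARS, KARS, LARS, MARS, QARS and RARS) sit together in the multisynthetase complex. SF3B1 is the part of the U2 snRNP that holds the branch point region ahead of a 3' splice site. Loss of its function leads to skipped exons and retained introns, and the K700E mutant is known for the use of cryptic 3' splice sites a short way upstream of the normal ones.

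The sequences below are those of 6 exons among the most changed, of 4 of the 3' splice sites and of an IARS exon with an upstream site. Only 4 of 11 splice sites before named exons and 3 of 12 of named introns lie within a transcript, which limited the choice. They were read from GENCODE v29 transcripts (GRCh38, the build hg38 of the table), 5' to 3' on the strand of the gene. The first 6 lines are whole exons at the coordinates of the splicing event, in capitals because every base is part of the exon skipped under H3B-8800. The VARS2 and RARS2 exons match no annotated exon and lie within longer annotated ones. The other lines show introns in lower case with the first exon bases in capitals, except the last, an exon of IARS in which the capitals mark the 14 bases added by an upstream 3' splice site that K700E cells use.
NARS exon, chr18:57607134-57607333, minus strand: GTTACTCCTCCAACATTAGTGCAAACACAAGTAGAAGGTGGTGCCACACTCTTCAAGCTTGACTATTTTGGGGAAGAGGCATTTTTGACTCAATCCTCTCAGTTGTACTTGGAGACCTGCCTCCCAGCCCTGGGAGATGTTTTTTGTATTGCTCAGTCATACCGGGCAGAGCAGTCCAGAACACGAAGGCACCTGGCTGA
HARS2 exon, chr5:140696103-140696201, plus strand: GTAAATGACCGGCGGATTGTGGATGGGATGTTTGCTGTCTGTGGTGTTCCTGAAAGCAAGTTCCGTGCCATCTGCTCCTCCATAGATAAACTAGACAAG
VARS2 exon, chr6:30920095-30920216, plus strand: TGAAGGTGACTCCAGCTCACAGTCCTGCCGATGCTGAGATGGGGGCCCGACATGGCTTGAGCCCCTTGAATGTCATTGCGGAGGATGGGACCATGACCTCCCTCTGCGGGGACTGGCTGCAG
RARS2 exon, chr6:87545616-87545687, minus strand: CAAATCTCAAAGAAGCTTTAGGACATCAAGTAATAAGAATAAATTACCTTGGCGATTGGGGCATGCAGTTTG
NARS2 exon, chr11:78478438-78478475, minus strand: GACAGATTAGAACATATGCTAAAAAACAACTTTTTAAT
FARSB exon, chr2:222628837-222628888, minus strand: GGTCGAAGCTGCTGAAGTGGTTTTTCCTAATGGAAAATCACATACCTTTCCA
NARS, 3' splice site before that exon: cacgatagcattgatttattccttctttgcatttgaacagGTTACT
HARS2, 3' splice site before that exon: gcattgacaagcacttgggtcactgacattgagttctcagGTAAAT
CARS, 3' splice site of the intron chr11:3002054-3002540: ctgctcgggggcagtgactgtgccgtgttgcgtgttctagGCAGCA
SARS2, 3' splice site of the intron chr19:38921668-38922237: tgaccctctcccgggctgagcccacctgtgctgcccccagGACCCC
IARS, exon with the upstream site, chr9:92244959-92245085, minus strand: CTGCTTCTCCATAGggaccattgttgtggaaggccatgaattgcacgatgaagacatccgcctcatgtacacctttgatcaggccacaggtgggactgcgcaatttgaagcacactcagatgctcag
All 4 splice sites shown end the intron in AG. Among the 20 intron bases before that AG, 15 were pyrimidines in NARS, 12 in HARS2, 13 in CARS and 14 in SARS2.

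The deposited table gives, for each splicing event, the percent of transcripts that include an exon, retain an intron or use an alternative splice site, with the read numbers behind it. Synthetase genes had 2235 of its 721551 rows. The 606 synthetase events tested comprised 275 introns, 246 exons and 85 alternative splice sites (48 at 3' and 37 at 5' ends of introns), with 334 events in cytosolic and 272 in mitochondrial enzyme genes. The libraries held 45840200 to 49891900 exon-exon junction reads under H3B-8800, against 50606900 to 56676200 under DMSO. The median synthetase event had 420 to 511 reads under H3B-8800, against 562 to 664 under DMSO. The 8 B cell marker genes summed to between 3758 and 6950 RPM in each library (exon-exon reads per 1000000 such reads), while 5 T and NK cell markers summed to at most 1.60 RPM and 5 myeloid markers to at most 1.69 RPM, with CD3G at 0 throughout. Of 6 fibroblast and epithelial markers, 4 had over 50 reads on average, with sums of 15.4 to 19.99 RPM in K700E cells with H3B-8800, 13.5 to 17.6 with DMSO, 14.0 to 15.9 in WT cells with H3B-8800 and 11.3 to 12.1 with DMSO.

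With H3B-8800, synthetase exons were included less and synthetase introns were retained more, in both genotypes. At least 1 exon was called lower in 24 of 34 genes with tested exons, in each genotype. At least 1 intron was called higher in 17 of 32 genes with tested introns in K700E cells and in 18 of 32 in WT cells, and 16 genes had both in each genotype. The shares of all genes with such calls are not given here. The median inclusion level of tested synthetase exons lay between 88.2% and 91.4% in libraries with H3B-8800, against 98.7% to 99.02% with DMSO. The median retention level of tested synthetase introns lay between 6.27% and 9.39% with H3B-8800, against 1.15% to 1.71% with DMSO. The 6 libraries of each treatment did not overlap in either measure. The shift was not particular to these genes. The mean level of all tested exons was 67.5% to 69.1% with H3B-8800 and 81.2% to 81.8% with DMSO. For tested synthetase exons it was 73.2% to 75.3% and 86.7% to 87.1%. Mean retention of all tested introns was 13.0% to 15.4% with H3B-8800 and 3.53% to 4.56% with DMSO. For tested synthetase introns it was 13.1% to 16.3% and 2.75% to 3.86%. An event was called changed at a Benjamini-Hochberg adjusted p under 0.05 in limma, fitted to the log2 odds of inclusion (the logit scale) over all events of the table that could be tested, and a difference of at least 10 points between group means.

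In K700E cells 190 of 606 synthetase events were called, against 31.3% of all events in the table. In WT cells 197 of 606 were called, against 32% of all events in the table. The called share of synthetase events was thus close to that of the whole table. Of the calls, 180 were shared by both genotypes, which is 94.7% of the K700E calls and 91.4% of the WT calls.

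Exons were the event type that went down. In K700E cells 85 of 246 synthetase exons were included less, which is 34.6%, against 38.5% of all exons in the table, and 0 were included more, against 0.443% of all exons (13 at an unadjusted p under 0.05 in limma). In WT cells 91 of 246 were included less, which is 37.0%, against 40.3% of all exons, and 0 were included more, against 0.501% (19 at an unadjusted p under 0.05). The calls fell in 24 genes in each genotype. Mitochondrial enzyme genes had 47 of 112 exons lower in K700E cells and 49 in WT cells, while cytosolic enzyme genes had 38 of 134 lower in K700E cells and 42 in WT cells. As a description, exons included less in WT cells had a median length of 94 bases, and 27 of 91 had a length that keeps the reading frame. The exons not called had a median length of 107 bases, and 66 of 155 kept the frame. The exons described next were chosen for calls without overlap between treatments, so their lack of overlap is part of the choice. Among all 246 synthetase exons, H3B-8800 and DMSO libraries did not overlap at 208 in K700E cells and 207 in WT cells. The share over the whole table is not given here.

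The largest fall of an exon in WT cells was in NARS, the cytosolic asparaginyl-tRNA synthetase gene, in the coding exon of 200 bases printed first above. Its inclusion level was 24.3%, 19.2% and 23.9% in K700E cells with H3B-8800, against 92.9%, 92.9% and 92.2% with DMSO. In WT cells it was 12.8%, 15.8% and 15.8% with H3B-8800, against 92.1%, 92.5% and 91.4% with DMSO. All 6 libraries with H3B-8800 lay far below all 6 with DMSO. The mean difference was -70.2 points in K700E cells (limma adjusted p = 5.53e-09) and -77.2 points in WT cells (limma adjusted p = 2.75e-09), on 599 to 2827 reads per library. The 3 NARS exons tested were all called in both genotypes, while 0 of its 8 tested introns were called (8 in K700E cells and 6 in WT cells at an unadjusted p under 0.05, all with less than 10 points).

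HARS2, the gene of the mitochondrial histidyl-tRNA synthetase, lost a frame-keeping exon of 99 bases to a like degree. It was included at 19.5%, 25.5% and 17.1% in K700E cells with H3B-8800, against 90.1%, 96.0% and 86.6% with DMSO. Among WT cells it was included at 17.4%, 21.9% and 19.7% with H3B-8800, against 91.3%, 88.3% and 90.2% with DMSO. The treatments did not overlap, and the differences of -70.2 points in K700E cells (limma adjusted p = 4.80e-07) and -70.2 points in WT cells (limma adjusted p = 5.93e-07) were the same size.

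VARS2, the mitochondrial valyl-tRNA synthetase gene, had the largest fall of an exon in K700E cells. Its exon of 122 bases was included at 15.6%, 16.2% and 19.0% in K700E cells with H3B-8800, against 94.7%, 96.6% and 93.9% with DMSO. In WT cells the values were 33.7%, 22.5% and 22.5% with H3B-8800, against 94.3%, 96.2% and 95.8% with DMSO. WT replicate 1 kept more of the exon than the other two WT libraries with H3B-8800, and the treatments did not overlap. The differences were -78.1 points in K700E cells (limma adjusted p = 2.24e-08) and -69.2 points in WT cells (limma adjusted p = 3.78e-08), and the difference between genotypes did not pass (limma adjusted p = 0.825).

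RARS2, the mitochondrial arginyl-tRNA synthetase gene, showed a wide spread among K700E clones. Its exon of 72 bases has a length that keeps the frame, though its ends match no annotated exon. The exon was included at 24.6%, 15.6% and 38.6% in K700E cells with H3B-8800, against 94.8%, 96.8% and 95.9% with DMSO. In WT cells it was included at 28.5%, 27.4% and 27.2% with H3B-8800, against 97.8%, 98.0% and 93.0% with DMSO. Every library with H3B-8800 was below every library with DMSO, with limma adjusted p = 1.02e-06 in K700E cells and 7.13e-07 in WT cells.

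The other exons named by size were in 4 mitochondrial enzyme genes and in FARSB, the beta subunit gene of the cytosolic phenylalanyl-tRNA synthetase. The NARS2 exon of 38 bases averaged 29.1% ± 5.79 in K700E cells with H3B-8800 and 84.7% ± 3.86 with DMSO, and 24.8% ± 5.64 in WT cells with H3B-8800 and 92.1% ± 3.06 with DMSO (SD, n = 3 each). The FARSB exon of 52 bases averaged 52.6% ± 6.67 in K700E cells with H3B-8800 and 99.7% ± 0.191 with DMSO, and 40.03% ± 0.352 in WT cells with H3B-8800 and 99.9% ± 0.0608 with DMSO. The FARSB exon was thus included in nearly every transcript in untreated cells of both genotypes. The AARS2 exon of 110 bases averaged 44.1% ± 2.54 in K700E cells with H3B-8800 and 97.1% ± 2.60 with DMSO, and 37.5% ± 3.45 in WT cells with H3B-8800 and 97.7% ± 2.80 with DMSO. The WARS2 exon of 86 bases averaged 42.7% ± 5.76 in K700E cells with H3B-8800 and 98.5% ± 0.690 with DMSO, and 38.6% ± 0.810 in WT cells with H3B-8800 and 98.0% ± 1.58 with DMSO. The SARS2 exon of 88 bases averaged 40.2% ± 1.19 in K700E cells with H3B-8800 and 93.9% ± 0.194 with DMSO, and 40.2% ± 11.3 in WT cells with H3B-8800 and 94.6% ± 1.44 with DMSO. Each of these exons was called in both genotypes, and their lengths shift the reading frame when they are skipped.

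**Figure D1:**
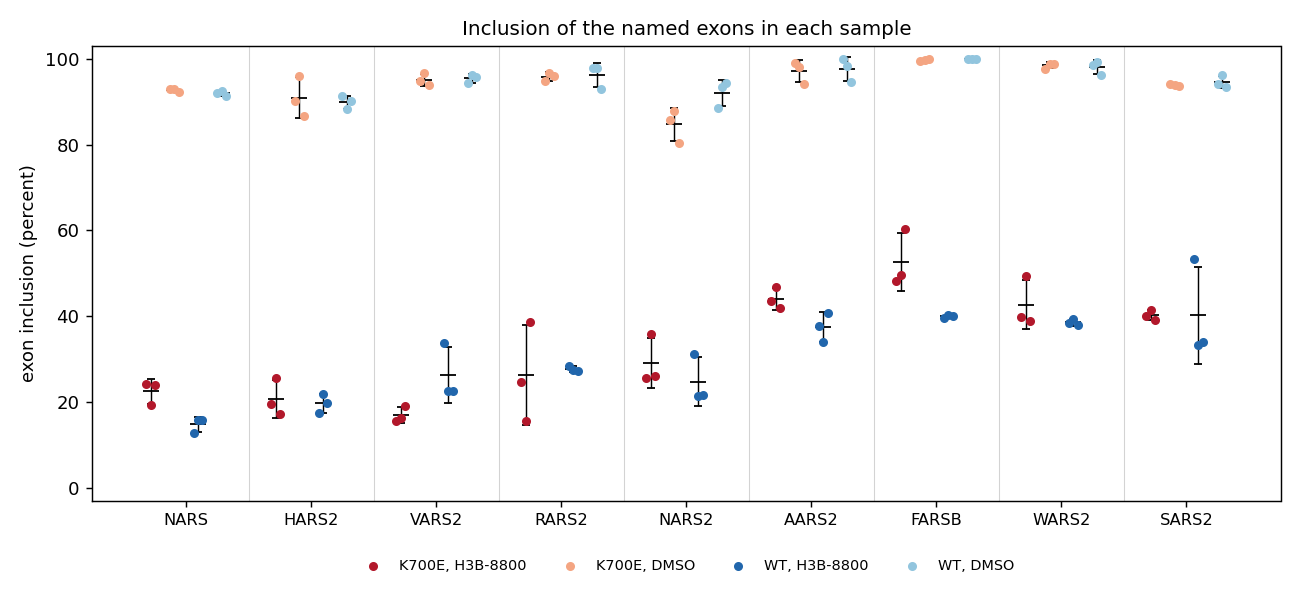
Inclusion level in percent (vertical axis, 0 to 100) of the 9 synthetase exons named in the text, 1 column per exon. Points are samples of K700E with H3B-8800, K700E with DMSO, WT with H3B-8800 and WT with DMSO, and bars are the mean ± SD of 3. In every column the libraries with H3B-8800 lie below those with DMSO, with the NARS exon lowest on average in WT cells and the VARS2 exon in K700E cells. The exons were chosen for a lack of overlap between treatments.

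Introns were the event type that went up. In K700E cells 98 of 275 synthetase introns were retained more, which is 35.6%, against 31.6% of all introns in the table, and 0 were retained less, against 0.363% of all introns (1 at an unadjusted p under 0.05 in limma). In WT cells 100 of 275 were retained more, which is 36.4%, against 31.9% of all introns, and 0 were retained less, against 0.361%, also at an unadjusted p under 0.05. Here the 2 compartments stood apart by count. Mitochondrial enzyme genes had 62 of 123 introns higher in K700E cells, which is 50.4%, and 65 of 123 in WT cells, which is 52.8%. Cytosolic enzyme genes had 36 of 152 higher in K700E cells, which is 23.7%, and 35 of 152 in WT cells, which is 23.0%. These shares are counts over introns that share genes, and no test was made between the compartments. The introns described below were likewise chosen for calls without overlap between treatments. Among all 275 synthetase introns, H3B-8800 and DMSO libraries did not overlap at 251 in K700E cells and 254 in WT cells. The share over the whole table is not given here.

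By count, the called share was higher among short introns, which was not tested. Of 69 synthetase introns of up to 150 bases, 32 were higher in K700E cells and 32 in WT cells, which is 46.4%, against 45.8% of all introns of that length in K700E cells and 47% in WT cells. Of 19 introns over 5000 bases, 2 were higher in each genotype, against 10.8% of all in K700E cells and 11.8% in WT cells. Of 115 introns over 150 and up to 1000 bases, 41 were higher in K700E cells and 40 in WT cells, against 40.1% of all in each. Of 72 introns over 1000 and up to 5000 bases, 23 were higher in K700E cells, which is 31.9%, against 24.3% of all, and 26 in WT cells, which is 36.1%, against 24.5% of all. In the whole table too, the share was highest up to 150 bases and lowest over 5000 bases.

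SARS2, the mitochondrial seryl-tRNA synthetase gene, was the gene with the broadest retention: all 13 of its tested introns were called higher in WT cells and 12 of 13 in K700E cells. Its intron of 3937 bases (chr19:38922268-38926204) was retained at 54.8%, 67.2% and 54.0% in K700E cells with H3B-8800, against 15.1%, 17.5% and 15.7% with DMSO. Among WT cells it was retained at 68.8%, 81.7% and 77.3% with H3B-8800, against 8.56%, 14.2% and 11.01% with DMSO. The treatments did not overlap, and the 3 WT libraries with H3B-8800 lay above the 3 K700E libraries with H3B-8800. The rise was 42.6 points in K700E cells (limma adjusted p = 2.89e-05) and 64.7 points in WT cells (limma adjusted p = 5.72e-07), and the difference of -22.1 points between them did not pass (limma adjusted p = 0.480). The next intron of SARS2, of 570 bases, was retained at 83.4% ± 2.20 in K700E cells with H3B-8800, against 30.3% ± 1.66 with DMSO, and at 87.1% ± 4.54 in WT cells with H3B-8800, against 37.4% ± 6.17 with DMSO (SD, n = 3 each).

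FARSA, the alpha subunit gene of the cytosolic phenylalanyl-tRNA synthetase, had the intron with the largest rise in log2 odds in both genotypes. Its intron of 1375 bases (chr19:12928848-12930222) was retained at 61.0%, 65.9% and 51.3% in K700E cells with H3B-8800, against 0.46%, 0.42% and 0.31% with DMSO. In WT cells it was retained at 51.6%, 65.2% and 66.3% with H3B-8800, against 0.31%, 0.40% and 0.29% with DMSO. An intron removed from nearly every transcript in untreated cells was thus kept in more than 50 of 100 after treatment in all 6 libraries, on 567 to 1050 reads each. The limma adjusted p was 5.11e-09 in K700E cells and 3.42e-09 in WT cells. At 0.29% to 0.46% with DMSO, its log2 odds rest on few reads of the intron, and so does that rank. In points it rose by 59.0 in K700E cells and 60.7 in WT cells. A CARS intron rose more in K700E cells (60.3 points), and introns of SARS2 and AARS2 rose more in WT cells (64.7 and 61.8 points).

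CARS, the cytosolic cysteinyl-tRNA synthetase gene, retained its intron of 487 bases (chr11:3002054-3002540), number 20 of 21 from the 5' end, at 83.1%, 79.2% and 76.9% in K700E cells with H3B-8800, against 21.1%, 18.6% and 18.6% with DMSO. Among WT cells it was retained at 69.1%, 84.9% and 78.5% with H3B-8800, against 17.4%, 20.2% and 18.1% with DMSO. The treatments did not overlap, and the limma adjusted p was 8.68e-07 in K700E cells and 8.74e-07 in WT cells.

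AARS2, the mitochondrial alanyl-tRNA synthetase gene, had 14 of 20 introns higher in K700E cells and 15 of 20 in WT cells. Its intron of 98 bases (chr6:44304322-44304419) was retained at 49.5%, 53.5% and 46.1% in K700E cells with H3B-8800, against 1.71%, 1.57% and 2.18% with DMSO. In WT cells it was retained at 66.3%, 67.3% and 69.1% with H3B-8800, against 3.51%, 6.67% and 7.03% with DMSO. All H3B-8800 libraries lay above all DMSO libraries, with limma adjusted p = 9.41e-08 in K700E cells and 1.27e-07 in WT cells. On the logit scale the difference between genotypes did not pass (limma adjusted p = 0.933).

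The other introns named by size were called in both genotypes as well. The VARS intron of 90 bases, in the cytosolic valyl-tRNA synthetase gene, averaged 38.4% ± 1.39 in K700E cells with H3B-8800 and 3.09% ± 0.421 with DMSO, and 39.97% ± 6.81 in WT cells with H3B-8800 and 3.93% ± 1.01 with DMSO (SD, n = 3 each). The AARS intron of 332 bases, in the cytosolic alanyl-tRNA synthetase gene, averaged 29.7% ± 7.17 in K700E cells with H3B-8800 and 2.90% ± 0.261 with DMSO, and 34.8% ± 3.66 in WT cells with H3B-8800 and 2.08% ± 0.629 with DMSO. The TARS2 intron of 1210 bases, in the mitochondrial threonyl-tRNA synthetase gene, averaged 38.5% ± 5.26 in K700E cells with H3B-8800 and 2.07% ± 0.297 with DMSO, and 34.2% ± 8.47 in WT cells with H3B-8800 and 1.60% ± 0.618 with DMSO. Each was under 5% in all 6 libraries with DMSO and above 20% in all 6 with H3B-8800. A VARS2 intron of 208 bases averaged 43.0% ± 6.62 in K700E cells with H3B-8800 and 2.76% ± 0.583 with DMSO, and 34.3% ± 2.32 in WT cells with H3B-8800 and 3.01% ± 0.365 with DMSO. A RARS2 intron of 365 bases averaged 43.0% ± 9.48 in K700E cells with H3B-8800 and 9.66% ± 1.85 with DMSO, and 34.4% ± 5.74 in WT cells with H3B-8800 and 5.98% ± 2.91 with DMSO.

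**Figure D2:**
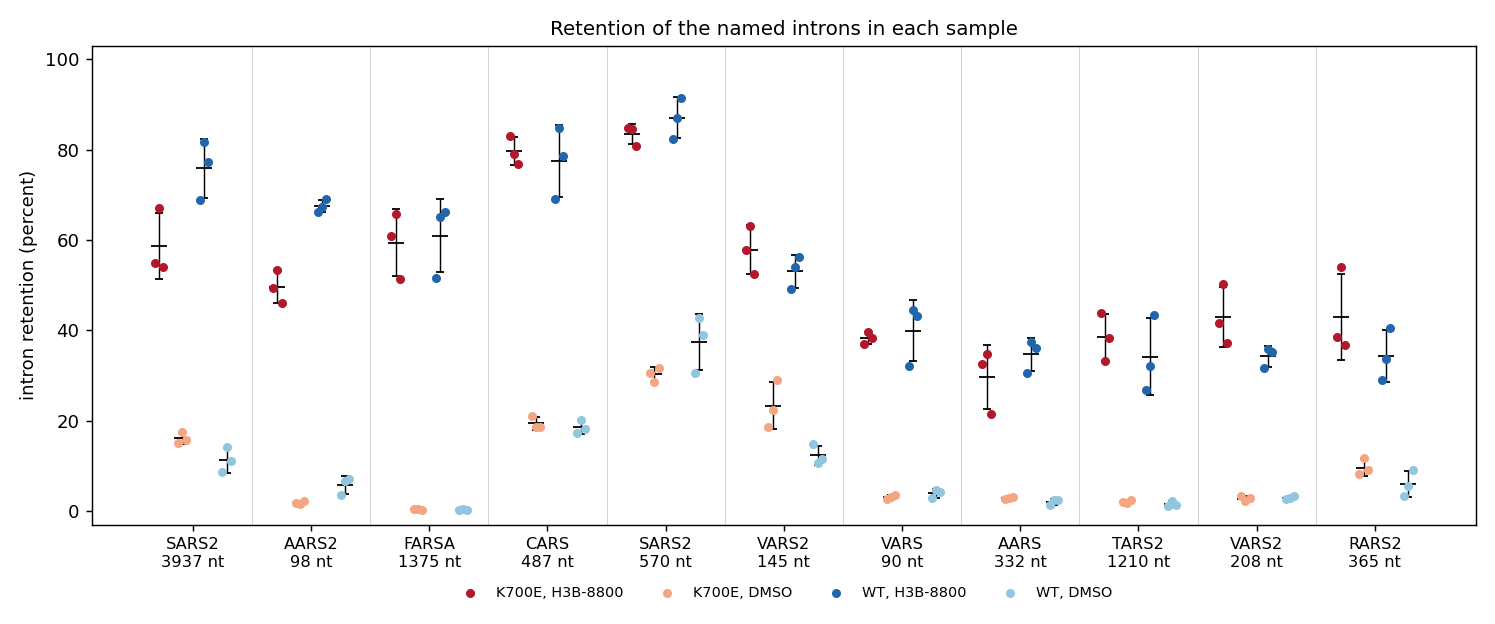
Retention level in percent (vertical axis, 0 to 100) of the 11 synthetase introns named in the text, 1 column per intron. Points are samples of K700E with H3B-8800, K700E with DMSO, WT with H3B-8800 and WT with DMSO, and bars are the mean ± SD of 3. In every column the libraries with H3B-8800 lie above those with DMSO, and the FARSA intron is under 1% in all 6 libraries with DMSO. The introns were chosen for a lack of overlap between treatments.

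A group of synthetase genes showed no called event. In K700E cells these were 10 of 35 genes: GARS, KARS, RARS, SARS, TARS, WARS, YARS, IARS2, PARS2 and YARS2. In WT cells they were the same genes without WARS, 9 of 35. The share of all genes without a called event is not given here. GARS, the glycyl-tRNA synthetase gene, had 8 tested events, and its most changed exon moved by -4.43 points in K700E cells and -4.72 points in WT cells. KARS, the lysyl-tRNA synthetase gene, had 10 tested events, and its most changed intron moved by 4.70 points in K700E cells and 3.93 points in WT cells. YARS2 had 1 tested event and PARS2 had 3, so little was measured in these genes.

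Alternative splice sites changed in few synthetase genes. In K700E cells 6 of 48 alternative 3' sites and 1 of 37 alternative 5' sites were called, against 12.2% and 5.59% of those in the table. In WT cells 5 of 48 and 1 of 37 were called, against 9.24% and 7.06% of those in the table. In IARS, the cytosolic isoleucyl-tRNA synthetase gene, a 3' site 50 bases upstream (chr9:92249858-92249991) was used at 20.8%, 17.9% and 17.7% in K700E cells with H3B-8800, against 0.42%, 0.89% and 1.24% with DMSO. Among WT cells it was used at 15.1%, 19.2% and 17.2% with H3B-8800, against 0.46%, 0.68% and 0.80% with DMSO. The treatments did not overlap, with limma adjusted p = 2.89e-07 in K700E cells and 2.02e-07 in WT cells.

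In MARS, AARS2, RARS2 and LARS2 an upstream 3' site near another one was used less with H3B-8800 in both genotypes. In MARS, the cytosolic methionyl-tRNA synthetase gene, the site 2 bases upstream averaged 89.1% ± 6.64 in K700E cells with H3B-8800 and 99.2% ± 1.30 with DMSO, and 83.6% ± 10.8 in WT cells with H3B-8800 and 100% ± 0 with DMSO (SD, n = 3 each). In AARS2 the site 19 bases upstream averaged 64.9% ± 5.93 in K700E cells with H3B-8800 and 89.1% ± 4.91 with DMSO, and 84.3% ± 8.31 in WT cells with H3B-8800 and 94.9% ± 1.77 with DMSO, on 49 to 97 reads. In RARS2 the site 4 bases upstream averaged 82.9% ± 4.78 in K700E cells with H3B-8800 and 93.0% ± 1.93 with DMSO, and 81.2% ± 1.13 in WT cells with H3B-8800 and 93.9% ± 0.545 with DMSO. The LARS2 site, 19 bases upstream, changed by -11.1 points in K700E cells and -10.6 points in WT cells. Most of these changes were near the 10 points a call needs. The LARS2 call in K700E cells was lost without replicate 1 of K700E cells with H3B-8800 (-7.16 points), the AARS2 call in WT cells was lost with the clone or culture as a block (adjusted p = 0.059), and the MARS call in WT cells when events were weighted by their reads (adjusted p = 0.0524). A SARS2 5' site 57 bases away averaged 25.2% ± 3.66 in K700E cells with H3B-8800 and 10.99% ± 3.66 with DMSO, and 36.9% ± 10.3 in WT cells with H3B-8800 and 8.21% ± 2.89 with DMSO, on as few as 21 reads.

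Without drug, K700E and WT cells differed at 1 of 606 synthetase events, against 0.349% of all events in the table, while 106 had an unadjusted p under 0.05. The event was a cryptic 3' site of VARS2, 10 bases upstream of the annotated one (chr6:30917095-30917224). It was used at 25.9%, 20.2% and 30.1% in K700E cells with DMSO, against 0.51%, 0% and 0% in WT cells with DMSO. With H3B-8800 it was used at 34.9%, 37.9% and 33.3% in K700E cells, against 0%, 0% and 0.65% in WT cells. Every K700E library used the site, and every WT library read less than 1%, on 121 to 264 reads; the 4 WT libraries at 0% allow a use of up to 1.14% to 2.24%, at 3 reads and for counting error only. The difference in DMSO was 25.2 points (limma adjusted p = 6.60e-05), and an added 10 bases shift the reading frame. The measured intron of 145 bases ends at the annotated site and not at the cryptic one. This intron was retained at 57.9% ± 5.40 in K700E cells with H3B-8800 and 23.4% ± 5.18 with DMSO, and at 53.1% ± 3.68 in WT cells with H3B-8800 and 12.3% ± 2.18 with DMSO (SD, n = 3 each). Its retention rose with H3B-8800 in both genotypes, and the genotype difference in DMSO did not pass (limma adjusted p = 0.123).

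IARS had a second upstream site that followed genotype and drug together, the one whose 14 added bases are capitalised in the printed exon. It was used at 3.21%, 2.66% and 3.15% in K700E cells with DMSO, against 0.09%, 0.05% and 0.09% in WT cells with DMSO. With H3B-8800 it was used at 15.7%, 18.2% and 12.5% in K700E cells, against 0.57%, 0.74% and 0.41% in WT cells. No K700E library overlapped a WT library, and the use under H3B-8800 in K700E cells was the highest of the 4 groups. The genotype difference in DMSO passed the adjusted p (limma, 2.84e-06) but not the 10 points, and the rise with H3B-8800 was called in K700E cells (12.5 points, limma adjusted p = 4.73e-06). In WT cells the rise of 0.497 points passed the adjusted p alone (limma, 3.89e-06). The difference of the drug effect was 11.98 points and did not pass on the logit scale (limma adjusted p = 0.994), where the site rose by 2.54 ± 0.27 (SE) in K700E cells and 2.57 ± 0.27 in WT cells in log2 odds of use. The WT libraries with DMSO had 1868 to 2229 reads at the event, so their log2 odds rest on very few reads of the site.

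EARS2, the mitochondrial glutamyl-tRNA synthetase gene, had another such site, 20 bases upstream (chr16:23529744-23529917). It was used at 2.77%, 2.07% and 2.31% in K700E cells with DMSO, against 0.53%, 0% and 0.28% in WT cells with DMSO. With H3B-8800 it was used at 1.43%, 2.26% and 5.24% in K700E cells, against 0% in each of the 3 WT libraries, which allows up to 1.60% to 2.04%. Use was higher in every K700E library than in every WT library, with limma adjusted p = 0.0167 in DMSO and a difference of 2.11 points, under the size for a call. It was chosen for mention after its values were seen. In the list of synthetase exons the lowest genotype p was for a CARS exon of 89 bases, included at 99.5% ± 0.131 in K700E cells with DMSO and at 100% ± 0 in WT cells with DMSO (limma adjusted p = 0.00733). The 3 WT libraries at 100% allow a skipping of up to 0.620% to 0.847%, for counting error only. The K700E libraries read 99.54%, 99.38% and 99.64%, a skipping of that order or less, and the difference was under the size for a call.

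**Figure D3:**
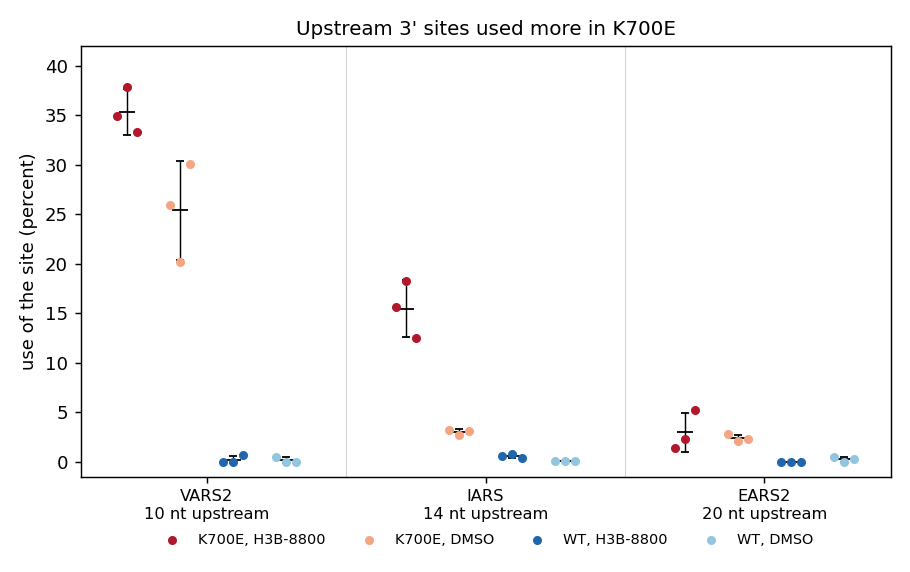
Use in percent (vertical axis) of the upstream 3' splice sites of VARS2 (10 bases), IARS (14 bases) and EARS2 (20 bases), 1 column per site. Points are samples of K700E with H3B-8800, K700E with DMSO, WT with H3B-8800 and WT with DMSO, and bars are the mean ± SD of 3. WT samples lie under 1% in all 3 columns, while K700E samples reach 37.9% in VARS2.

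The number of spliced transcripts was followed by summing the exon-exon reads over the annotated introns of each gene, in RPM. A transcript that skips an exon or keeps an intron gives fewer of these reads, so the sum measures correctly spliced junctions and not total RNA, and in bulk samples fewer cells and less RNA per cell cannot be told apart. It could be tested in 33 of 36 synthetase genes. MARS2 has no intron, MARS had 0 to 9 such reads per library over 2 introns, and PARS2 had 30 to 69 over 1 intron.

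Spliced reads of synthetase genes were mostly lower with H3B-8800. In K700E cells 19 of 33 genes fell and 2 rose, against 35.8% of all genes lower and 16.2% higher. In WT cells 22 of 33 fell and 2 rose, against 40.8% of all genes lower and 18.5% higher. The median log2 fold change of the 33 genes was -0.32 in K700E cells and -0.45 in WT cells, while that of all 10182 genes tested was -0.22 and -0.28. With each library scaled by the median ratio of genes, which centres all genes near 0, 13 fell and 5 rose in K700E cells, against 26.2% of all genes lower and 26.4% higher. With that scaling 13 fell and 4 rose in WT cells, against 29.3% lower and 29.2% higher. With the clone or culture as a block, 24 fell and 3 rose in K700E cells, against 51.5% of all genes lower and 26.9% higher, and 27 fell and 3 rose in WT cells, against 54.5% lower and 27.9% higher. Among cytosolic enzyme genes 11 of 19 fell in K700E cells and 14 of 19 in WT cells, and 0 rose in either, also at an unadjusted p under 0.05 in limma. Among mitochondrial enzyme genes 8 of 14 fell and 2 rose in each genotype. Both depended on the scaling. With median-ratio scaling 8 cytosolic enzyme genes fell in each genotype, and 1 rose in K700E cells and 0 in WT cells. Of the mitochondrial enzyme genes 5 fell and 4 rose in each genotype with that scaling. Of the 8 genes of the multisynthetase complex, 7 could be tested, and 3 fell in K700E cells and 4 in WT cells, or 2 in each with median-ratio scaling, and 5 in K700E cells and 7 in WT cells with the block.

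SARS2 fell the most. It had 15.6, 13.7 and 17.8 RPM in K700E cells with H3B-8800, against 41.4, 42.1 and 43.8 RPM with DMSO. In WT cells it had 6.60, 9.52 and 9.04 RPM with H3B-8800, against 39.0, 41.9 and 41.2 RPM with DMSO. The treatments did not overlap, and the K700E libraries with H3B-8800 kept more spliced reads than the WT libraries with H3B-8800. The log2 fold change was -1.44 ± 0.14 (SE) in K700E cells (limma adjusted p = 1.32e-05) and -2.29 ± 0.14 in WT cells (limma adjusted p = 3.73e-07). SARS2 overlaps the MRPS12 gene at its 5' end on the opposite strand and the readthrough gene AC011455.2 on its own strand, so reads of these genes may not be fully told apart, and whether reads were counted by strand is not given in the sources used here.

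FARSA, the gene of the intron with the largest rise in log2 odds, had 101, 98.9 and 105 RPM in K700E cells with H3B-8800, against 196, 242 and 229 RPM with DMSO. Among WT cells it had 74.4, 89.5 and 84.4 RPM with H3B-8800, against 206, 233 and 235 RPM with DMSO. All 6 libraries with H3B-8800 were below all 6 with DMSO, and the log2 fold change was -1.12 ± 0.10 (SE) in K700E cells (limma adjusted p = 5.80e-06) and -1.44 ± 0.10 in WT cells (limma adjusted p = 6.02e-07). FARSB, its partner subunit, had 219, 286 and 295 RPM in K700E cells with H3B-8800, against 263, 346 and 365 RPM with DMSO. In WT cells FARSB had 314, 330 and 288 RPM with H3B-8800, against 404, 409 and 383 RPM with DMSO. The K700E groups of FARSB overlapped and its change was not called there (log2 fold change -0.28 ± 0.14, limma adjusted p = 0.103), while in WT cells it fell (-0.36 ± 0.14, limma adjusted p = 0.0389), a call that median-ratio scaling ended (adjusted p = 0.655). Within each K700E clone FARSB was lower with H3B-8800 than with DMSO, and with the clone as a block it was called lower there as well (limma adjusted p = 2.61e-05).

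The other falls named by fold change in either genotype were in TARS2, HARS, NARS, CARS, NARS2, AARS, EPRS and RARS2. The log2 fold change of TARS2 was -1.12 in K700E cells and -1.36 in WT cells. That of HARS, the cytosolic histidyl-tRNA synthetase gene, was -1.04 in K700E cells and -1.19 in WT cells. NARS moved by -1.07 in each genotype. CARS moved by -0.89 in K700E cells and -1.09 in WT cells, and NARS2 by -0.71 in K700E cells and -1.10 in WT cells. AARS moved by -0.93 in K700E cells and -0.94 in WT cells, and EPRS by -0.81 in K700E cells and -0.92 in WT cells. For RARS2 the change was -0.68 in K700E cells and -0.94 in WT cells. All of these were called in both genotypes, and no library with H3B-8800 overlapped one with DMSO of the same genotype.

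HARS2 and YARS2 rose. HARS2 had 148, 104 and 106 RPM in K700E cells with H3B-8800, against 81.5, 66.1 and 67.2 RPM with DMSO. In WT cells HARS2 had 96.7, 109 and 116 RPM with H3B-8800, against 49.2, 54.9 and 57.0 RPM with DMSO. H3B-8800 and DMSO libraries did not overlap, and the log2 fold change was 0.72 ± 0.14 (SE) in K700E cells (limma adjusted p = 0.00141) and 1.00 ± 0.14 in WT cells (limma adjusted p = 0.000119). HARS2 thus rose in spliced reads while 2 of its exons were skipped and 6 of its 10 tested introns were retained more, in both genotypes. YARS2, the mitochondrial tyrosyl-tRNA synthetase gene, had 56.8, 59.0 and 56.5 RPM in K700E cells with H3B-8800, against 36.2, 38.5 and 39.3 RPM with DMSO. In WT cells YARS2 had 63.1, 65.5 and 59.7 RPM with H3B-8800, against 38.3, 38.4 and 35.8 RPM with DMSO. Again the treatments did not overlap, and the log2 fold change was 0.60 ± 0.07 in K700E cells and 0.74 ± 0.07 in WT cells.

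The genes of the 2 histidyl-tRNA synthetases lie head to head on chromosome 5, HARS at 140673904 to 140691862 on the minus strand and HARS2 at 140691426 to 140699318 on the plus strand, and their 5' ends overlap. Their spliced reads moved in opposite directions along their whole length. All 12 introns of HARS had fewer exon-exon reads with H3B-8800 in both genotypes, with log2 ratios from -1.36 to -0.75 in K700E cells and from -1.46 to -0.98 in WT cells. All 12 introns of HARS2 had more, with log2 ratios from 0.15 to 0.96 in K700E cells and from 0.45 to 1.39 in WT cells. The opposite signs were thus not limited to the overlapping ends.

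Within other genes the fall was uneven. In LARS2, the mitochondrial leucyl-tRNA synthetase gene, the log2 ratio of exon-exon reads was -0.25 at the first intron in K700E cells and -0.09 in WT cells. It was -1.17 at the last of its 21 introns in K700E cells and -1.59 in WT cells, and lowest at intron 18, with -1.33 in K700E cells and -1.76 in WT cells. In CARS the last 2 introns had log2 ratios of -2.58 and -1.98 in K700E cells and -2.74 and -2.18 in WT cells, while the median of its 21 introns was -0.80 in K700E cells and -1.04 in WT cells. The first of those is the retained CARS intron described above. In SARS2 the 13 introns with a mean of at least 50 reads ranged from -1.98 to 0.03 in K700E cells and from -2.95 to -0.83 in WT cells, with the first intron highest. In NARS the 13 introns ranged only from -1.22 to -0.95 in K700E cells and from -1.19 to -0.87 in WT cells. VARS stood out by its second intron, whose reads had a log2 ratio of 1.93 in K700E cells and 1.87 in WT cells on a mean of 87.2 reads, while the median of its 29 introns was -0.08 in K700E cells and -0.04 in WT cells. These ratios are given without a test.

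**Figure D4:**
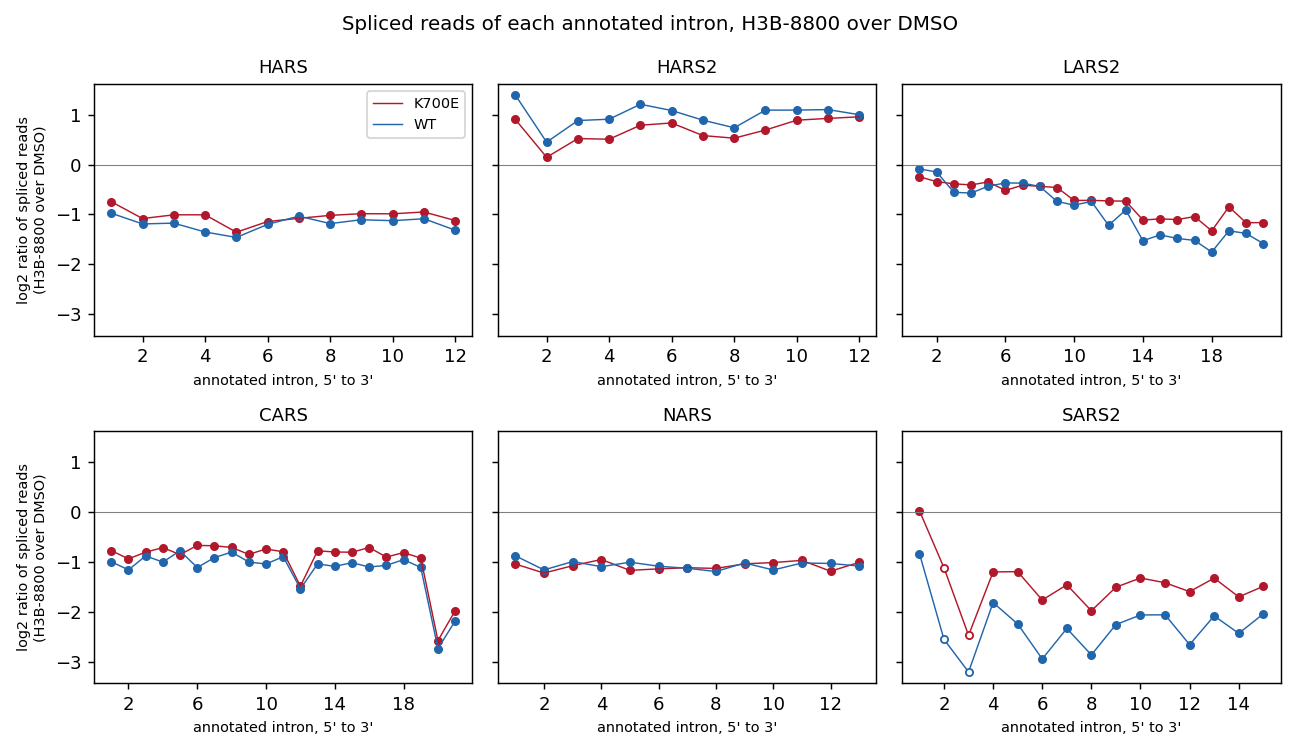
Log2 ratio of exon-exon reads in RPM, H3B-8800 over DMSO (vertical axes), for each intron from the 5' to the 3' end (horizontal axes) of HARS, HARS2, LARS2, CARS, NARS and SARS2, with K700E and WT as separate lines and open points for introns with a mean under 50 reads. HARS lies below 0 and HARS2 above 0 throughout, LARS2 declines towards its 3' end, and the last 2 introns of CARS lie lowest.

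Several synthetase genes lay above the median of all genes without a call. VARS and IARS2 were not called in either genotype, with log2 fold changes of -0.12 and -0.03 in K700E cells and -0.06 and -0.06 in WT cells. IARS, KARS and LARS were not called either, with log2 fold changes of -0.02, -0.04 and -0.10 in K700E cells and -0.11, -0.14 and -0.23 in WT cells. With the clone or culture as a block, IARS, KARS, LARS, AARS2 and WARS passed as lower in WT cells and LARS, VARS, DARS, FARSB and WARS in K700E cells, while median-ratio scaling put IARS2 and VARS2 higher in both genotypes and YARS higher in K700E cells. VARS2 moved by 0.36 in K700E cells and 0.18 in WT cells and passed as higher in both with that block (adjusted p = 3.41e-05 in K700E cells and 0.00432 in WT cells). WARS, the cytosolic tryptophanyl-tRNA synthetase gene, known to be induced by interferon, varied among K700E clones: it had 759, 195 and 316 RPM with H3B-8800 and 744, 265 and 362 RPM with DMSO, against 215, 185 and 202 RPM in WT cells with H3B-8800 and 288, 257 and 269 RPM with DMSO. K700E replicate 1 was the high library under both treatments. WARS was not called in either genotype without the block, and with it the limma adjusted p was 0.0164 in K700E cells and 7.86e-05 in WT cells.

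**Figure D5:**
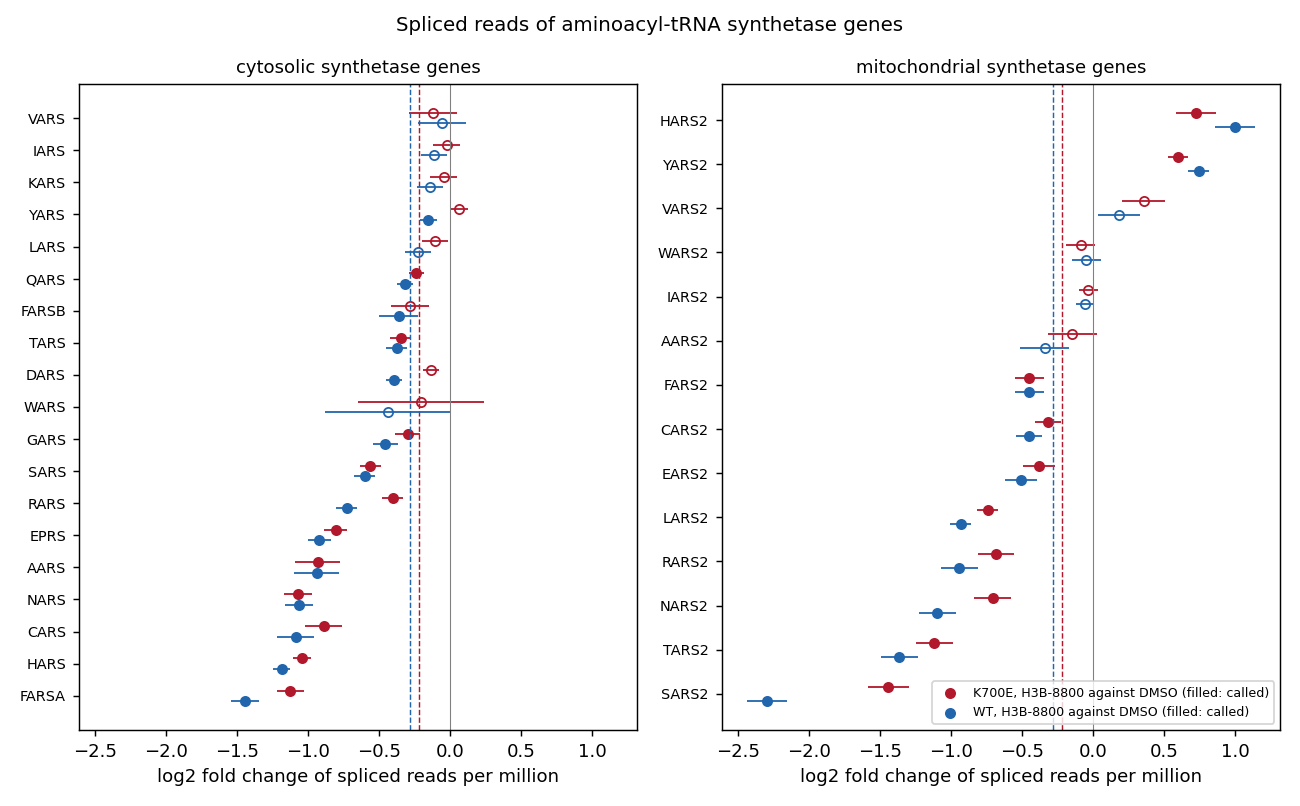
Log2 fold change of spliced reads, H3B-8800 over DMSO (horizontal axes, ± SE), for 33 synthetase genes (vertical axes), in panels for cytosolic and mitochondrial enzymes, with K700E above WT for each gene. Filled points passed limma's adjusted p under 0.05, and dashed lines mark the median of all genes, -0.22 in K700E and -0.28 in WT. SARS2 lies farthest left and HARS2 farthest right.

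Between genotypes in DMSO, spliced reads of 1 of 33 synthetase genes were called, against 4.86% of all genes. VARS2, the gene of the cryptic site, had 65.9, 70.9 and 80.4 RPM in K700E cells, against 94.6, 121 and 112 RPM in WT cells. The genotypes did not overlap, and the log2 fold change was -0.59 ± 0.15 (SE, limma adjusted p = 0.0498). The call was lost in 12 of the alternative settings, among them each setting that left out 1 library of either DMSO group, with adjusted p up to 0.193. With scaling by the median ratio of genes, TARS and NARS2 were called lower as well, against 2.75% of all genes lower.

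The difference of the H3B-8800 effect between K700E and WT cells was called for 0 of 606 synthetase events with limma on the logit scale, against 0.00917% of all events, with 47 at an unadjusted p under 0.05. With limma on percentage points, 5 were called, against 0.664% of all events. Among these a TARS2 exon of 98 bases was included at 46.8%, 45.2% and 45.5% in K700E cells with H3B-8800, against 88.2%, 81.7% and 81.6% with DMSO. In WT cells it was included at 35.7%, 38.4% and 34.4% with H3B-8800, against 85.5%, 89.9% and 88.0% with DMSO. This exon fell by 38.02 points in K700E cells and by 51.6 points in WT cells. A SARS2 exon of 55 bases fell by 15.1 points in K700E cells and by 33.3 points in WT cells. An AARS2 intron of 236 bases was retained at 28.8% ± 1.93 in K700E cells with H3B-8800 and 6.59% ± 0.398 with DMSO, and at 39.0% ± 1.68 in WT cells with H3B-8800 and 3.90% ± 1.36 with DMSO (SD, n = 3 each), a difference of -12.9 points (adjusted p = 0.00587 on percentage points and 0.443 on the logit scale). The other two were the IARS site with 14 added bases and the AARS2 intron of 98 bases.

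For spliced reads the difference was called for 0 of 33 synthetase genes, against 0.0491% of all genes, with 5 at an unadjusted p under 0.05 in limma. With the clone or culture as a block, 5 of 33 were called, against 6.05% of all genes, all with a positive difference, K700E minus WT: SARS2, DARS, FARSA, RARS and YARS.

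The partners of the synthetases in charging and delivering transfer RNA moved in a similar mix. Of 21 such genes 20 were tested, and 11 fell and 4 rose in K700E cells, against 35.8% of all genes lower and 16.2% higher, while 12 fell and 3 rose in WT cells, against 40.8% of all genes lower and 18.5% higher. With median-ratio scaling 8 fell and 4 rose in each genotype, against 26.2% lower and 26.4% higher of all genes in K700E cells and 29.3% lower and 29.2% higher in WT cells, and the calls of GATC were among those lost. With the clone or culture as a block 14 fell and 4 rose in each genotype, against 51.5% of all genes lower and 26.9% higher in K700E cells and 54.5% lower and 27.9% higher in WT cells. The largest falls were in TARSL2, which encodes a second cytosolic threonyl-tRNA synthetase, with a log2 fold change of -1.77 in K700E cells and -1.62 in WT cells, and in MTFMT, which formylates the mitochondrial initiator transfer RNA, with -1.29 in K700E cells and -1.27 in WT cells. DTD2, an enzyme that removes wrongly attached amino acids, moved by -0.85 in K700E cells and -1.04 in WT cells, and XPOT, the nuclear export receptor of transfer RNA, by -0.79 in K700E cells and -0.95 in WT cells. All 3 subunit genes of the mitochondrial amidotransferase that makes glutaminyl-tRNA fell in both genotypes, with log2 fold changes of -0.55 in K700E cells and -0.65 in WT cells for GATB, -0.45 in each for GATC, and -0.73 in K700E cells and -0.74 in WT cells for QRSL1. PTRH2, a peptidyl-tRNA hydrolase gene, rose by 0.77 in K700E cells and 0.86 in WT cells, EEF1A1, the elongation factor that carries charged transfer RNA, by 0.34 in K700E cells and 0.43 in WT cells, and TRNT1, the enzyme that adds the CCA end, by 0.39 in K700E cells and 0.27 in WT cells.

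Of 19 genes of the response to missing amino acids, which is set off by uncharged transfer RNA, 17 were tested. In K700E cells 5 fell and 1 rose with H3B-8800, against 35.8% of all genes lower and 16.2% higher, and in WT cells 4 fell and 0 rose, against 40.8% lower and 18.5% higher. With median-ratio scaling 3 fell and 2 rose in K700E cells, against 26.2% of all genes lower and 26.4% higher. In WT cells 2 fell and 3 rose with that scaling, against 29.3% lower and 29.2% higher. With the clone or culture as a block 8 fell and 5 rose in K700E cells, against 51.5% of all genes lower and 26.9% higher. In WT cells 8 fell and 6 rose with the block, against 54.5% lower and 27.9% higher. ATF4, its central transcription factor gene, was not called, with log2 fold changes of -0.16 in K700E cells and -0.17 in WT cells, nor was ASNS, the asparagine synthetase gene, with -0.27 in K700E cells and -0.26 in WT cells. With the clone or culture as a block both were called lower, ATF4 with limma adjusted p = 0.0313 in K700E cells and 0.0211 in WT cells, and ASNS with 0.0163 in K700E cells and 0.0166 in WT cells. PSPH, a gene of serine synthesis, moved by -1.12 in K700E cells and -1.32 in WT cells, and SESN2, the sestrin 2 gene, by -0.83 in K700E cells and -1.09 in WT cells. Other genes went up. DDIT3 moved by 0.58 in K700E cells and 0.56 in WT cells. It was not called as reported, but was called higher in both genotypes with median-ratio scaling and with the block. TRIB3 was called higher in both genotypes with the block alone. MTHFD2 rose by 0.24 in K700E cells, where it was called, and by 0.15 in WT cells, where it was not. Between K700E and WT cells in DMSO 3 of the 17 genes were called higher, against 4.86% of all genes called in either direction: ATF4 by 0.46, ATF3 by 0.91 and MTHFD2, a mitochondrial folate enzyme gene, by 0.41 on the log2 scale, and with median-ratio scaling MTHFD2 alone was called. The median log2 fold change of the list with H3B-8800 was -0.04 in K700E cells and -0.09 in WT cells.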

How the data were processed

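RNA of 12 MEC1 samples in 4 groups of 3 was sequenced as stranded poly(A) libraries with 3 paired-end technical runs each, per the labels' protocols. Reads were trimmed with cutadapt 2.4 and hg38 was used, per the submitters' processing notes. No source used here gives the aligner or the splicing tool. The authors deposited 1 table of splicing events with an inclusion level in percent per sample and a text of read numbers beside it. Each sample's deposited percent and read numbers were used, and 36 columns of single runs were not.

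Events with at least 20 reads in every sample, a mean level of 1% to 99% and, for introns, balanced exon-intron reads were kept, and the site numbered 1 of each alternative site was left out, which left 109092 events. The pseudocount of 0.5 reads was added to the inclusion and exclusion read numbers, and the log2 odds were fitted with limma 3.58.1 (trend, R 4.3.3), all 4 groups in 1 fit, with Benjamini-Hochberg adjustment over all events. Exon-exon reads were summed per gene, scaled to RPM, and fitted likewise on the log2 scale with 0.5 reads added, for 10182 genes whose mean over samples reached 50 reads. Such fold changes understate those of low genes. Intervals and floors of 3 reads cover counting error only. Tables were read with Python 3.11.15, numpy 2.4.6 and pandas 2.3.3, and the fits were checked on simulated data. Annotation and sequences come from GENCODE v29.

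Samples with the same replicate number in H3B-8800 and DMSO come from the same clone or culture, per the labels, and the fit with that block is an alternative. Deviations from the group means correlated by 0.017 to 0.049 in K700E pairs and 0.015 to 0.069 in WT pairs, each higher than with any other number.

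Synthetase genes and gene lists were chosen with earlier results of these data known. Genes were named for spliced reads where called, up to 8 per direction by fold change. Events were named by size, 1 per gene and type, where called and not overlapping between groups: up to 8 exons lower, 8 introns higher, 3 alternative 3' and 3 alternative 5' sites, and up to 4 exons higher and 4 introns lower. Where a contrast called fewer than 3, the 3 with the lowest p were taken. Genes and events beyond this rule were chosen after their values were seen. Other read minimums, pseudocounts, filters, scalings, weights, size thresholds and libraries left out in turn were tried.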

Additional observations from a re-analysis of the deposited data

Results flagged for a closer look

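The effect of H3B-8800 differed between K700E and WT cells at 5 events with limma on percentage points, none of which passed on the logit scale. A TARS2 exon of 98 bases differed by 13.6 points, with -38.02 points in K700E cells and -51.6 points in WT cells (adjusted p = 0.0401, or 0.620 on the logit scale). A SARS2 exon of 55 bases differed by 18.2 points, with -15.1 points in K700E cells and -33.3 points in WT cells (adjusted p = 0.0128, or 0.973 on the logit scale). The AARS2 intron of 236 bases differed by -12.9 points, with 22.2 points in K700E cells and 35.1 points in WT cells (adjusted p = 0.00587, or 0.443 on the logit scale). The AARS2 intron of 98 bases differed by -14.0 points, with 47.9 points in K700E cells and 61.8 points in WT cells (adjusted p = 0.0266, or 0.933 on the logit scale). The IARS site with 14 added bases differed by 11.98 points, with 12.5 points in K700E cells and 0.497 points in WT cells (adjusted p = 0.00551, or 0.994 on the logit scale).

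For spliced reads, the effect of H3B-8800 differed between genotypes in 5 genes when the clone or culture was a block in limma. The difference in log2 fold change was 0.85 for SARS2 (-1.44 in K700E cells and -2.29 in WT cells, adjusted p = 0.00620 with the block and 0.450 without). It was 0.32 for FARSA (-1.12 in K700E cells and -1.44 in WT cells, adjusted p = 0.0440 with the block and 0.941 without) and 0.32 for RARS (-0.40 in K700E cells and -0.73 in WT cells, adjusted p = 0.0440 with the block and 0.736 without). It was 0.26 for DARS (-0.13 in K700E cells and -0.39 in WT cells, adjusted p = 0.0287 with the block and 0.676 without) and 0.22 for YARS (0.06 in K700E cells and -0.15 in WT cells, adjusted p = 0.0396 with the block and 0.900 without).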

How the results depend on the processing

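With a threshold of 20 points in place of 10, 101 events were called in K700E cells (47 exons lower, 53 introns higher) and 112 in WT cells (54 exons lower, 57 introns higher). Scaling by the median ratio of genes left 13 synthetase genes lower in WT cells and put 5 higher in K700E cells and 4 in WT cells. Between genotypes in DMSO, 2 events were called with the site numbered 1 tested too and 2 with weights from the read numbers, against 1 as reported. For spliced reads between genotypes, 0 genes were called without the filter on reads, 0 with exon-intron reads added, 0 with only the groups compared and 3 with median-ratio scaling, against 1 as reported. The difference of the H3B-8800 effect was called at 5 events on percentage points and, with the clone or culture as a replicate block, in 5 genes for spliced reads, against 0 as reported. With that block 24 genes were lower and 3 higher in K700E cells, and 27 lower and 3 higher in WT cells.

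Leaving out 1 library in turn gave 185 to 204 called events in K700E cells (84 to 90 exons, 94 to 105 introns) and 187 to 198 in WT cells (89 to 92 exons, 93 to 101 introns). It gave 19 to 20 genes lower and 2 to 3 higher on spliced reads in K700E cells, and 20 to 22 lower and 2 to 2 higher in WT cells. Between genotypes it gave 1 to 1 events and 0 to 2 genes, and for the difference of the effect 0 to 0 of either. The 70 named results include some that were not called as reported. Of the 70, 63 lost no call under any alternative run. Of 1525 alternative values, 21 lost a call, 4 gained one and 0 reversed. The SARS2 5' site lost its call in K700E cells without replicate 1 of K700E cells with DMSO (adjusted p = 0.0611). The causes of these changes were not tested. Each group holds 3 libraries, and events with few reads, such as the SARS2 5' site at 21, are the least precise.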
